A study of Mus musculus with 9 samples.

Results

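The baseline transcriptome of normal splenic B cells was read from the 3 wildtype libraries among the 9 libraries of the series, chosen because their labels give no transgene. The 3 wildtype mice (Z2754, Z2755 and Z2785) were of strain C57/BL6NTac, and the study calls them littermates without a transgene. They served as controls for 3 Eµ-TCL1 mice of the same strain and 3 Eµ-MTCP1 mice descended from a single founder (Z36), which carry human MTCP1 or TCL1 under a heavy-chain variable region promoter and the Eµ enhancer, active in B cells. B cells were separated from spleen with a pan B cell isolation kit, and total RNA was amplified as cDNA with a SMARTer kit and sequenced, 1 library per mouse. Age and sex are not in the labels. The wildtype libraries held 14, 6 and 14 reads on the human transgene sequences, against 1754 to 47439 in the 6 transgenic libraries.

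Mature B cells of the spleen are mostly follicular cells that recirculate through blood and lymphoid organs, with a smaller marginal zone population that stays at the border of the white pulp. They are resting cells that carry an immunoglobulin receptor paired with CD79A and CD79B, take up the antigen it binds and show peptides of it on MHC class II molecules to T cells. Plasma cells, the antibody-secreting descendants of B cells, lose much of this program and devote their transcription to immunoglobulin.

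Levels are given as TPM, in which reads are divided by the effective length of each transcript and scaled to a total of 1000000 per library, so that levels can be compared between genes. Triplets of values follow the order Z2754, Z2755, Z2785. Between 6502690 and 7845240 reads were assigned per wildtype library on the custom mouse reference that includes the human sequences, so that a gene with 0 reads could stand at up to 0.382 to 0.461 CPM (reads scaled to a common library total, without regard to length), the value of 3 reads, a limit that covers counting error only. The custom reference appears to hold coding sequences, an inference from its lengths that the sources used here do not state: 87.3% of its transcripts have lengths that are multiples of 3, and the median length of transcripts in both references is 834 bases on it and 1696 on the standard one, and a transcript with an effective length of a few bases has a high TPM from few reads. Values on the standard reference are given for selected genes, and other custom levels can also differ from it by 2-fold or more. In the headers of the count table Z2755 carries another lane code (L001) than the other 8 libraries (L005). It also stood apart in the neutrophil genes and in other genes described below, and lane and mouse cannot be told apart.

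The 4 markers of the label were present in every mouse. Cd79a, the signalling chain of the B cell receptor (chromosome 7, 24897381 to 24902197, GRCm38), reached 3609, 2902 and 2819 TPM. Ms4a1, which encodes CD20 (chromosome 19, 11249675 to 11266241), stood at 512, 348 and 253 TPM. Fcer2a, the low-affinity IgE receptor CD23 of follicular cells (chromosome 8, 3681737 to 3694175), stood at 280.3, 216 and 204 TPM. All 3 genes were highest in Z2754, and the gap was widest for Ms4a1. Cr2, the complement receptor CD21 that is strongest on marginal zone cells (chromosome 1, 195136811 to 195176716), was the most uneven of the marker genes on the custom reference, with 223, 120.3 and 73.1 TPM, but had 243, 245 and 178 TPM on the standard reference, where the gap was much smaller. Z2785 was the lowest on both.

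All 18 genes of a B lineage list lay above the expression filter used here (a mean of at least 5 TPM and at least 100 reads in all). Their summed level was 10150, 9895 and 8627 TPM. Cd79b, the partner of Cd79a, followed it with 1664 ± 163 TPM (mean ± SD, n = 3), then the tetraspanin gene Cd37 with 1231, 1257 and 1219 TPM. In 17 of the 18 genes the highest mouse was less than 2-fold above the lowest, the exception being Ms4a1, which had 345, 313 and 243 TPM on the standard reference, without such a gap. Over all 7621 genes that passed the filter, 632 differed by over 2-fold between Z2754 and Z2755, with 1 TPM added to each value. The other pairs had 601 (Z2754 and Z2785) and 757 (Z2755 and Z2785) such genes. Most genes thus kept within 2-fold, and such evenness is not particular to this list.

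Promoter sequences are shown for 4 genes that stand for both parts of the data, the B cell program (Cd79a and Cr2) and the myeloid genes that set Z2755 apart further below (Mpo and Elane). The 250 bases before the RefSeq start are given 5′ to 3′ on the strand of the gene (build GRCm38.p6), with capitals marking AGGAAGT, the core bound by Ets family factors such as PU.1, or its complement ACTTCCT.
Cd79a (chr7:24897247-24897496, plus strand): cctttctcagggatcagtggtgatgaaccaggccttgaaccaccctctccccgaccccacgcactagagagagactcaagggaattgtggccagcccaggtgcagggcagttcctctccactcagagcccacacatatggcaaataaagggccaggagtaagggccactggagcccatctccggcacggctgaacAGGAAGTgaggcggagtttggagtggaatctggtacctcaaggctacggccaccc
Cr2 (chr1:195176720-195176969, minus strand): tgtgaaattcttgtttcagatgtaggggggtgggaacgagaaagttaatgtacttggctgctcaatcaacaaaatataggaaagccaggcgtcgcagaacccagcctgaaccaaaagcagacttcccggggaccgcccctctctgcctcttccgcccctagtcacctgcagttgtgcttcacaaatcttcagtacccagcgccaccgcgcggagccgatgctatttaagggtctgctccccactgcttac
Mpo (chr11:87793534-87793783, plus strand): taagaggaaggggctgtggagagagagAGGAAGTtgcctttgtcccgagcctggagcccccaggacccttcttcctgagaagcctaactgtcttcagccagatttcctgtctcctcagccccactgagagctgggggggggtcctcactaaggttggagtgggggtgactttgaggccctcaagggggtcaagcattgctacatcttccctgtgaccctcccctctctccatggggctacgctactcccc
Elane (chr10:79886062-79886311, plus strand): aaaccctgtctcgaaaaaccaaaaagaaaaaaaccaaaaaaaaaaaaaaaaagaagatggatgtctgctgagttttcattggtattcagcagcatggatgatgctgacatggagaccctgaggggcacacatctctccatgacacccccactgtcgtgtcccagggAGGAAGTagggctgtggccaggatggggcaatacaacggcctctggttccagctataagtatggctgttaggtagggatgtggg
The motif was searched on both strands and occurs in 7.69% of 32851 RefSeq promoter windows of this length. It was found in 4 of the 14 B lineage genes with a window (Blnk, Cd37, Cd72 and Cd79a) and in 4 of the 10 neutrophil genes (Elane, Ly6g, Mpo and S100a8). Of 7 MHC class II genes with a window, 1 had it (H2-Oa). These counts take a gene with the motif in any of its windows, while the share is per window. The counts and the share are therefore not directly comparable. The octamer ATGCAAAT or ATTTGCAT, a site bound by the broadly expressed factor OCT1 and by OCT2, which is enriched in B cells, was present in 1.60% of all windows and in 1 of the 14 B lineage genes, Blnk. It was found in 0 of the 10 neutrophil genes and 0 of the 7 MHC class II genes. The GENCODE start of Cd79a, Mpo and Elane lies inside the window printed, so RefSeq and GENCODE do not place these starts at the same base.

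The composition of the transcriptome was not the same in the 3 mice. Genes for cytosolic ribosomal proteins held 23.7, 19.4 and 29.2% of all TPM, immunoglobulin genes 10.6, 10.1 and 12.9%, and the 13 mitochondrially encoded genes 5.98, 2.22 and 1.64%. Z2755 had the smallest share of ribosomal protein transcripts and Z2754 the largest mitochondrial share. The same order of mice was seen on the standard reference for ribosomal proteins, with 19.3, 15.2 and 22.6%, and for mitochondrial genes, with 7.05, 3.31 and 2.69% over 37 genes, ribosomal and transfer RNA genes included. Immunoglobulin genes held 10.01, 10.09 and 12.6% there, so Z2785 was highest on both references and the order of the others was not the same.

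**Figure D1:**
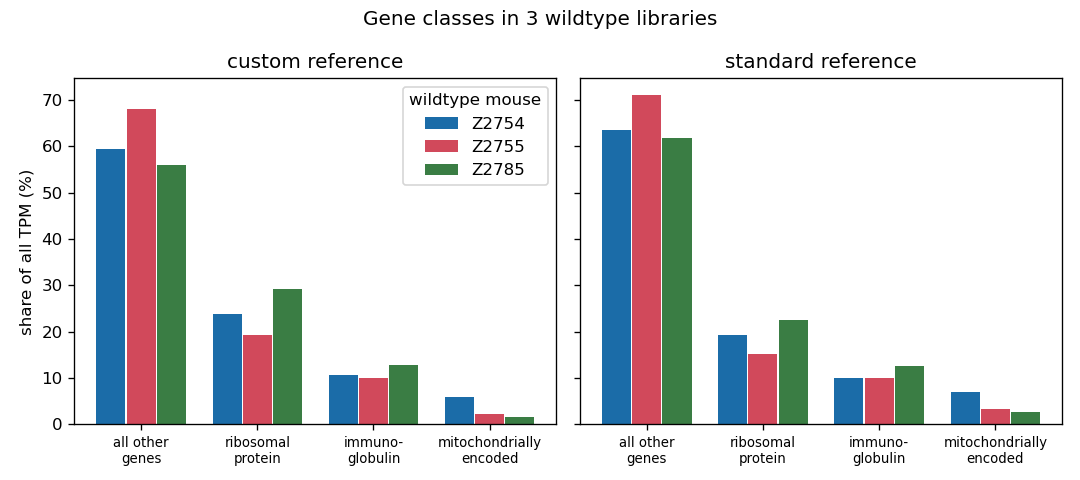
Share of all TPM (vertical axis, %) held by 4 classes of genes in each wildtype library, on the custom reference (left) and the standard reference (right); each bar is 1 mouse. Ribosomal protein genes range from 19.4 to 29.2% on the custom reference, and the mitochondrial share of Z2754 (5.98%) stands above those of the others.

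The immunoglobulin class was led by the constant region of the kappa light chain. Igkc (chromosome 6, 70726435 to 70726966) reached 42654, 38772 and 54198 TPM and was the most abundant gene of the whole table. Ighm, the constant region of IgM, followed with 6759, 6606 and 8639 TPM, ahead of the lambda constant genes Iglc2 with 5773 ± 532 TPM, Iglc1 with 3620.2 ± 376 TPM and Iglc3 with 3559 ± 317 TPM. Z2785 was the highest of the mice for each of the 5 genes on the custom reference, while Iglc2 was highest in Z2754 on the standard one, with 4267, 3484 and 3936 TPM. Lambda constant genes are close copies of each other, and their shares depend on how reads were divided among them.

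High ribosomal protein genes were Rps27 with 16607 ± 3206 TPM, Rpl37a with 9364 ± 2120.2 TPM, Rps19 with 8174 ± 1408 TPM and Rpl39 with 6072 ± 1453 TPM. On the standard reference Rps27 stood at 5637, 5527 and 7700.4 TPM and Rpl39 at 1446, 779.9 and 1251 TPM, well under the custom values. Among mitochondrial genes the leading 5 were mt-Atp8, mt-Co3, mt-Atp6, mt-Co2 and mt-Co1, subunits of ATP synthase and cytochrome oxidase. The genes mt-Co1 and mt-Co3 had 5581, 2997 and 2362 (mt-Co1) and 8549.9, 5753 and 4559 (mt-Co3) TPM, with Z2754 highest in both.

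Of all 22118 genes, 9642 reached 1 TPM in every wildtype mouse, 973 reached 100 TPM and 141 reached 1000 TPM, while 8012 had no reads in any of them. On the custom reference the most abundant gene outside the 3 classes was Cd74, the invariant chain that escorts MHC class II molecules, at 27931, 30571 and 27693 TPM. On the standard reference Rn7s1, which the custom one lacks, stood above Cd74, with means of 29941 against 22304 TPM. The classical class II genes H2-Ab1, H2-Aa and H2-Eb1 were also among the 30 leading genes, with 7482 ± 432, 3812 ± 195 and 3249 ± 441 TPM. Of the 30 leading genes, 26 had less than a 2-fold gap between the highest and the lowest mouse, these 4 among them. Most genes over the filter also had gaps under 2-fold.

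Several small surface and cytosolic proteins of lymphocytes came next. Cd52, a short glycoprotein of the lymphocyte surface, reached 4442, 4183 and 4419.6 TPM with little spread between mice. The GPI-anchored proteins Ly6d and Ly6e had 4082 ± 219.6 and 3224 ± 105 TPM. The iron storage genes Ftl1 and Fth1 had 8379 ± 1291 and 3633 ± 119 TPM. Ubb, a polyubiquitin gene, had 5085, 6242 and 4538 TPM, highest in Z2755 by less than 2-fold. MHC class I was represented by H2-D1 at 2748 ± 349 TPM and by its light chain B2m at 2478 ± 422 TPM.

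The remaining leading genes serve translation, chromatin and the cytoskeleton. Eef1a1, the elongation factor that delivers aminoacyl-tRNA, stood at 4232 ± 537 TPM, the initiation factor Eif1 at 3079, 1687 and 1359 TPM (on the standard reference 2322, 2507 and 2092 TPM, closer together), the prolyl isomerase gene Ppia at 3341 ± 242 TPM and prothymosin (Ptma) at 2053 ± 85.9 TPM. Histone H3.3 was encoded by H3f3a and H3f3b at 3266 ± 246 and 2769.8 ± 349 TPM. Actin regulators included Pfn1 at 3173 ± 556 TPM, Rac2, a small GTPase of blood cells, at 2090.5 ± 128 TPM and Sh3bgrl3 at 2774 ± 236 TPM. Rps3a1 (2360.2 ± 379 TPM), Rpl10-ps3 (2413 ± 617 TPM) and Gm11808 (3826 ± 1058 TPM) fell outside the symbols used to define the ribosomal protein class and may share reads with close copies.

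**Figure D2:**
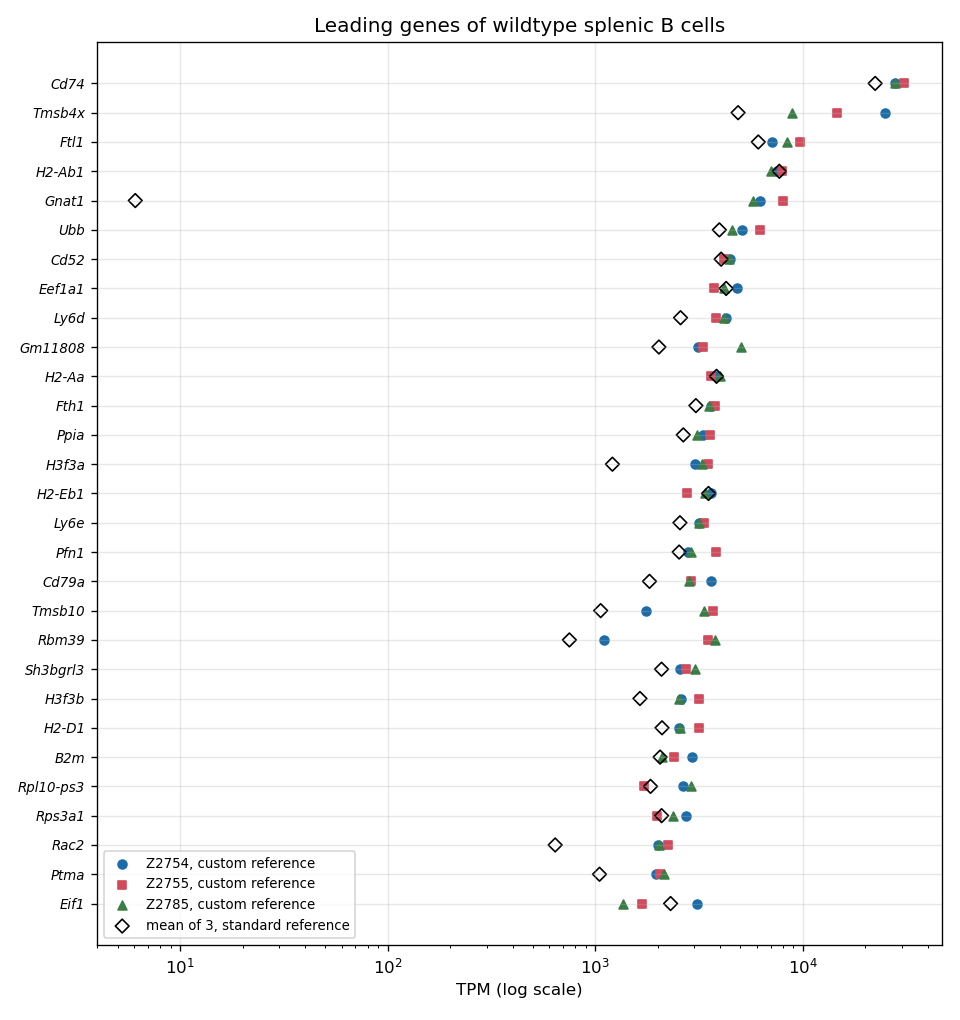
The levels of 29 of the 30 leading genes outside the immunoglobulin, mitochondrial and ribosomal protein classes, with TPM on a log axis; filled symbols are the 3 wildtype mice on the custom reference and open diamonds the mean of the same mice on the standard reference. Diamonds lie near the filled symbols for most genes, and far to the left for Gnat1, whose custom levels are 5746 to 8044 TPM.

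The order of this list depended in part on the reference. Of the 30 genes, 18 were also among the leading 30 on the standard reference, 24 lay within 2-fold between references, and 6 were over 2-fold higher on the custom reference. Several of the leading 30 on the standard reference, such as Rn7s1, Gm29216 and Gm26917, are absent from the custom one. Lars2 had a mean of 3794 TPM on the standard reference against 5.56 TPM on the custom one. Gnat1, which encodes the transducin alpha subunit of rod photoreceptors, had 6250.4, 8044 and 5746 TPM on the custom reference, from 6981, 9040 and 6050 reads, but 4.55, 9.25 and 4.46 TPM on the standard one. The whole of its custom level in Z2754 came from 1 transcript of 264 bases. Its high rank held on the custom reference alone.

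Tmsb4x, the actin-sequestering thymosin beta 4, was similarly affected. It ranked after Cd74 with 24944, 14544 and 8877 TPM, a difference of more than 2-fold between mice, but rested on 2427, 1334 and 785 reads. In Z2754 its 2 main transcripts of 153 and 135 bases had effective lengths of 6 and 4 bases. On the standard reference it had 5720.3, 5129 and 3780.4 TPM, and the mice were closer together. Tmsb10, a related thymosin, had 1763, 3676 and 3358 TPM from 136, 251 and 216 reads, and 734, 1259 and 1193 TPM on the standard reference. The splicing factor gene Rbm39 had 1105, 3501 and 3766 against 712, 895 and 646 TPM. H3f3a and Rac2 were the other genes over 2-fold higher on the custom reference, with standard levels of 1359, 1148 and 1123 (H3f3a) and 502, 784 and 638 (Rac2) TPM, and both were even between mice on the custom one.

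Below the leading genes, the signalling chain of the B cell receptor was measured throughout. All 23 genes of a B cell receptor signalling list passed the filter, summing to 8614, 8533 and 7470.5 TPM. The inhibitory co-receptor Cd22 had 438, 790.5 and 468 TPM, the phosphatase Ptpn6 379 ± 31.3 TPM, the adaptor genes Dok3 and Blnk 269 ± 7.03 and 242 ± 37.6 TPM. The kinases that carry the signal were lower, with Lyn at 126 ± 11.7, Syk at 97.9 ± 13.9 and Btk at 52.2 ± 8.58 TPM. In 21 of the 23 genes the highest mouse was less than 2-fold above the lowest, which most genes over the filter also showed. The exceptions were Pik3cd, the catalytic subunit of a leukocyte PI3 kinase, at 97.02, 204 and 240.1 TPM and Prkcb, a protein kinase C gene, at 43.9, 139 and 29.7 TPM. By the standard reference Pik3cd had 64.9, 77.9 and 71.2 TPM, without such a gap, and Prkcb 142, 198 and 84.1 TPM, with Z2755 highest on both.

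Transcription factors that set B cell identity were measured at moderate levels. Of 25 genes, 24 passed the filter, and Lef1, a factor of progenitor and T cells, was left below it at 2.64, 1.29 and 1.37 TPM. Klf2, which keeps lymphocytes resting and recirculating, led with 641, 1050.5 and 405 TPM and was over 2-fold apart between Z2755 and Z2785. Mef2c and Irf8 followed with 373 ± 62.3 and 356 ± 92.2 TPM. Ebf1 stood at 134 ± 40.6, Spib at 102 ± 9.21, Pou2af1 at 87.4 ± 11.6, Pax5 at 39.6 ± 5.67 and Bach2 at 18.5 ± 3.05 TPM. Pax5, the factor that commits cells to the B lineage, was among the lower members named here. Of the 24 over the filter, Klf2, Foxo1 (42.4, 90.9 and 39.04 TPM) and Zbtb7a (99.9, 135 and 206 TPM) had a gap of 2-fold or more between mice. Standard levels were 15.1, 28.8 and 15.8 TPM for Foxo1 and 110.1, 119 and 104 TPM for Zbtb7a, with gaps under 2-fold for both.

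All 10 genes of the MHC class II list kept within 2-fold, as most genes over the filter did. The list summed to 46481, 48401 and 45349 TPM, nearly equal in the mice. Apart from the chains named above it held H2-DMb2 with 1301 ± 170.0 TPM and H2-DMa with 825 ± 76.6 TPM, which load peptide, H2-Oa and H2-Ob, which restrain loading in B cells, with 417 ± 29.3 and 379 ± 33.3 TPM, and the transactivator Ciita with 220.4 ± 49.7 TPM. The MHC class I list summed to 8632, 9222 and 8648 TPM. H2-Q4, a nonclassical gene with close copies, was the 1 of its 12 members with a gap of 2-fold or more, at 16.5, 9.71 and 24.2 TPM.

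Receptors that place and sustain B cells were also present in every mouse. Ltb, the lymphotoxin beta gene needed for follicle structure, was the highest of 16 homing genes at 1117, 1528 and 1300.4 TPM. Ccr7, which guides cells into lymph nodes, stood at 294 ± 25.3 TPM, S1pr1, the exit receptor, at 157 ± 12.2 TPM and Cxcr5, the follicle receptor, at 66.9 ± 13.8 TPM. Tnfrsf13c, the BAFF receptor, had 204 ± 24.01 TPM and Cd40 140.3 ± 14.3 TPM, while Tnfrsf17, the receptor of plasma cells, had 5.22 ± 1.49 TPM. Among Fc receptors Fcmr, which binds IgM, led with 802 ± 90.8 TPM, and Fcgr2b, the inhibitory IgG receptor, had 92.6 ± 15.7 TPM. All 7 Fc receptor genes over the filter kept within 2-fold, as did most of all genes over it.

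Genes of the resting state and of division were both measured. The 13 genes of a quiescence list summed to 3139, 3774 and 2323 TPM, led by the antiproliferative gene Btg1 at 1029, 1098 and 708 TPM, Tsc22d3, also called Gilz, at 826, 896 and 629 TPM and Klf2. The standard reference gave 439, 541 and 323 TPM for Btg1. Other members were low, with Foxo3 at 6.001 ± 0.521 and Tsc1 at 13.3 ± 2.23 TPM, so the sum rests mainly on its 3 leading genes. The 18 cell cycle genes summed to 431, 690.3 and 409.8 TPM, of which Pcna, the sliding clamp of DNA polymerase, was the highest at 124 ± 20.1 TPM and Mki67 stood at 3.19, 6.13 and 3.22 TPM. Z2755 was the highest mouse for 14 of the 16 cell cycle genes over the filter, the exceptions being Pcna and Cdk1 (7.37, 11.97 and 12.3 TPM), and for all 16 on the standard reference. Over all 7621 genes that passed the filter Z2755 was the highest mouse for 61.1%, Z2754 for 25.8% and Z2785 for 13.1%, and on the standard reference Z2755 was the highest for 71.8%. Immediate early genes, which respond within minutes to stimulation and to cell handling, were abundant, with 6885, 10771 and 6038 TPM over 18 genes. Fos had 853, 905 and 784, Junb 1797, 2285 and 1456, Jun 837, 1165 and 928 and Dusp1 496, 727 and 536 TPM. Among further members Nr4a1 and Egr1 had 149.5, 197 and 168 (Nr4a1) and 122, 143 and 122 (Egr1) TPM, and Egr2 and Egr3 14.1, 6.37 and 6.86 (Egr2) and 11.3, 3.799 and 4.13 (Egr3) TPM.

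Further lists add to the description of the resting cell. Interferon-induced genes were led by Ifi27l2a at 597, 843 and 1188 TPM, and 17 of 24 passed the filter. Unc93b1, the chaperone of endosomal toll-like receptors, stood at 424 ± 138 TPM, and Cd180 and Ly86, which together form a receptor of B cells, at 75.5 ± 10.8 and 392 ± 100.3 TPM. Glycolytic genes were led by Gapdh at 1089 ± 107 TPM and Eno1 at 670.1 ± 222 TPM. Among chaperones Hspa5, of the endoplasmic reticulum, and Hspa8, of the cytosol, had 1083, 2042 and 1376 (Hspa5) and 788, 1121 and 776 (Hspa8) TPM, and Hspa5 had 634, 879 and 556 TPM on the standard reference. Both were constitutive members, and the 2 heat shock genes over the variation limit were the inducible Hspa1a and Hspa1b described below.

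Among lists of B cell subsets, the follicular list summed to 3259.6, 3330.1 and 2427 TPM over 8 genes and the marginal zone list to 1012, 1077 and 1016 TPM over 9. The highest marginal zone gene, Mzb1 at 454, 546 and 642 TPM, is also a gene of plasma cells, as is Jchain, the joining chain of secreted IgM and IgA, which at 1369, 1375 and 1803 TPM made up most of the plasma cell list. The B1 list summed to 57.9, 71.2 and 79.4 TPM and Cd5, its defining surface marker, had 0.334, 0.681 and 5.72 TPM from 6, 13 and 32 reads. Of the transitional and immature list, Vpreb3 had 208 ± 32.4 TPM, while Rag1 and Rag2, the recombinase genes of progenitors, had 0 reads on the custom reference in all 3 mice. Germinal centre genes were low, with Bcl6, a repressor that germinal centre cells need, at 16.4 ± 1.16 TPM. In bulk RNA fewer cells of a type and less RNA per cell cannot be told apart.

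Markers of other cell types ranged from 0 reads to levels among those of B cell genes. Of the 14 T cell genes only Cd2, which mouse B cells also express, passed the filter, at 209 ± 23.7 TPM. Cd3e had 1.18, 0.561 and 2.19 TPM from 6, 3 and 11 reads, and Cd8a and Thy1 had 0 reads in all 3 mice. These and the zeros below are those of the custom reference, and on the standard one Thy1, Cd8a, Clec9a and Ccl19 had levels of at most 0.659 TPM in a mouse. NK cell genes summed to 49.8, 95.4 and 77.1 TPM, with Nkg7 at 35.5, 81.2 and 48.4 TPM. Macrophage and dendritic genes summed to 1306, 2047 and 1835 TPM, nearly all of it Lyz2, the lysozyme of myeloid cells, at 1214, 1879 and 1675 TPM. The macrophage receptor gene Csf1r had 14.3, 17.5 and 25.4 TPM, Adgre1 (F4/80) 3.81, 3.896 and 3.099 TPM, and Clec9a had 0 reads. Platelet genes summed to 0.426, 1.699 and 2.61 TPM, and Col1a2, Col3a1, Cxcl13 and Ccl19 of the stroma list had 0 reads in every mouse.

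The neutrophil and erythroid lists were uneven between mice.

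**Figure D3:**
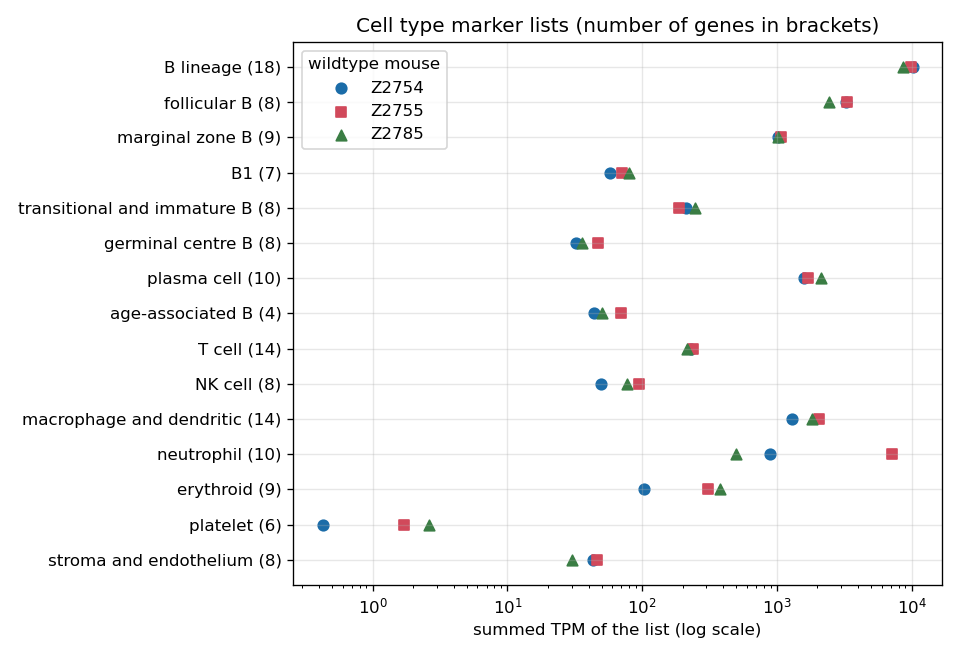
Summed TPM of 15 cell type marker lists (log axis) in the 3 wildtype mice, with the number of genes of each list in brackets. The neutrophil list lies at 7134 TPM in Z2755 and at 883 and 500 TPM in the others.

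The neutrophil list had 883, 7134 and 499.7 TPM and the erythroid list 103, 307 and 381 TPM, 14.3-fold and 3.68-fold from the lowest to the highest mouse, and on the standard reference 13.8-fold and 3.50-fold. In the 6 transgenic libraries the neutrophil list lay between 39.0 and 4024 TPM. Z2755 stood above every other library of the series for this list. Ly6g, a surface marker of mature neutrophils, had 0, 4 and 0 reads, and Retnlg and Csf3r, also of mature cells, had 1.39, 2.09 and 0.453 (Retnlg) and 0.645, 4.68 and 2.14 (Csf3r) TPM. Of these 3 markers, Ly6g and Retnlg had at most 5 reads in a mouse, while Csf3r had 26, 203 and 89 reads, most in Z2755.

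Variation between the mice was measured as the SD over the 3 libraries of log2(TPM + 1). There is 1 library per mouse, so the spread between mice includes that of preparation and sequencing, and no test was made. Of 7621 genes over the filter, 284 had an SD above 1, which is 3.73% of those examined. The median SD was 0.299, against a median of 0.0831 for the SD that counting error alone would give. None of 78 ribosomal protein genes, 20 of 179 immunoglobulin genes and 6 of 13 mitochondrial genes exceeded the limit. Pearson's r across these genes was 0.944 to 0.952 between pairs of mice, a description across genes that are not independent.

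CPM and the standard reference gave further measures of the same spread, and the count over all 3 measures together was added after the values were seen. An SD above 1 was also found in CPM, which ignores length, for 152 of the 284 genes and in TPM on the standard reference for 104, and 92 genes exceeded it in all 3. In 64 of the 92, Z2755 was the mouse farthest from the others and higher than both. Z2755 was also the highest mouse, by any margin, for 61.1% of all 7621 genes over the filter, and for 71.8% on the standard reference. Without Z2755 the count over the limit was 204 and the median SD 0.214, against 357 without Z2754 and 280 without Z2785.

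**Figure D4:**
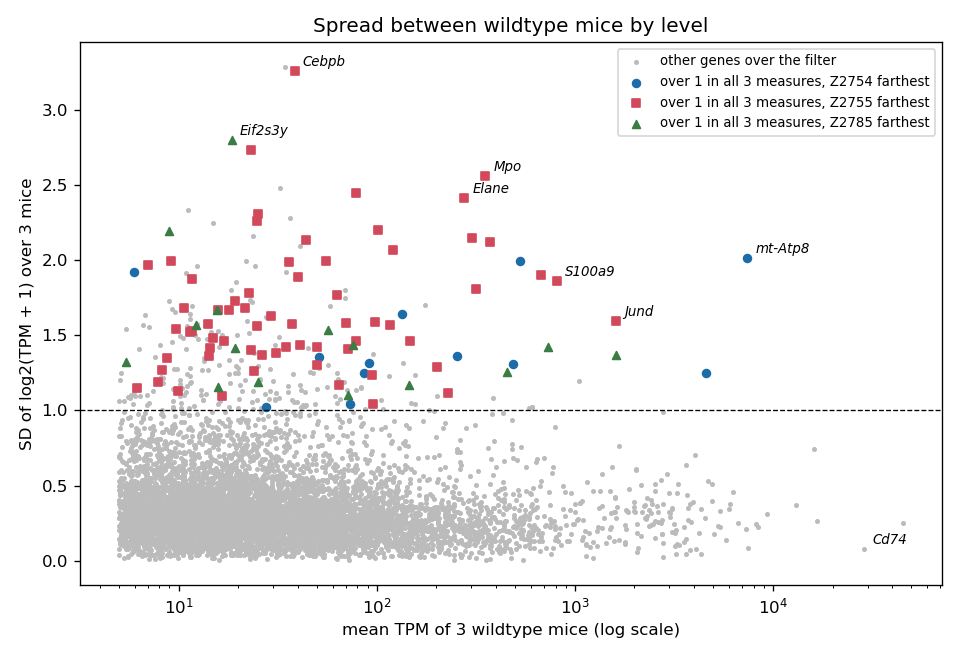
SD of log2(TPM + 1) over the 3 wildtype mice (vertical axis) against mean TPM (log axis) for 7621 genes; grey points are genes not over 1 in all 3 measures, and coloured symbols the 92 that are, by the mouse farthest from the others. Most coloured symbols (64) mark Z2755 as the high mouse, which was also the highest, by any margin, for 61.1% of all 7621 genes.

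Granule genes of granulocyte precursors were high in Z2755. Mpo, the myeloperoxidase of primary granules (chromosome 11, 87793581 to 87804413), had 39.7, 971 and 49.7 TPM from 1036, 21406 and 883 reads. Elane, neutrophil elastase (chromosome 10, 79886247 to 79888215), had 48.8, 745 and 34.04 TPM, and its neighbour Prtn3, proteinase 3, 24.3, 313 and 26.2 TPM. Ctsg, cathepsin G, had 4.72, 68.4 and 2.54 TPM. For these 4 genes Z2754 and Z2785 were within 2-fold of each other and Z2755 was several-fold above both. Genes of later granules were also highest in Z2755, with the cathelicidin Camp at 75.5, 788 and 48.6 TPM, neutrophilic granule protein Ngp at 111, 955 and 56.4 TPM and lactoferrin, Ltf, at 10.7, 115 and 6.34 TPM. S100a8 and S100a9, the subunits of calprotectin, had 353, 1558 and 112 (S100a8) and 242, 1996 and 190.2 (S100a9) TPM. All 7 genes of the neutrophil list over the filter (Prtn3 and Ctsg are not on it) were above the limit in all 3 measures.

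Other genes outside the myeloid list were high in the same library. Cebpb, a transcription factor of myeloid and stress responses, had 0.962, 113 and 1.73 TPM from 5, 475 and 7 reads and, next to Sap18, the largest SD of all. The mRNA export adaptor Alyref had 8.83, 214 and 12.5 TPM, the AP-1 gene Jund 991, 3461 and 380.0 TPM, the survival gene Mcl1 103, 420.0 and 79.01 TPM and the inducible chaperones Hspa1a and Hspa1b 10.2, 75.5 and 19 (Hspa1a) and 6.53, 92.5 and 9.19 (Hspa1b) TPM. Tmem243 (24.8, 267 and 14.4 TPM), Snx20 (15.7, 141 and 9.73 TPM) and the kinase gene Cdk13 (8.05, 92.5 and 6.97 TPM) were also several-fold higher in Z2755, as were the predicted genes Gm10800 (1.82, 66.4 and 1.296 TPM) and Gm10801 (0.693, 23.9 and 2.74 TPM). Of the genes named here Cdk13 was not over the limit in all 3 measures, with an SD of 0.985 in CPM.

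**Figure D5:**
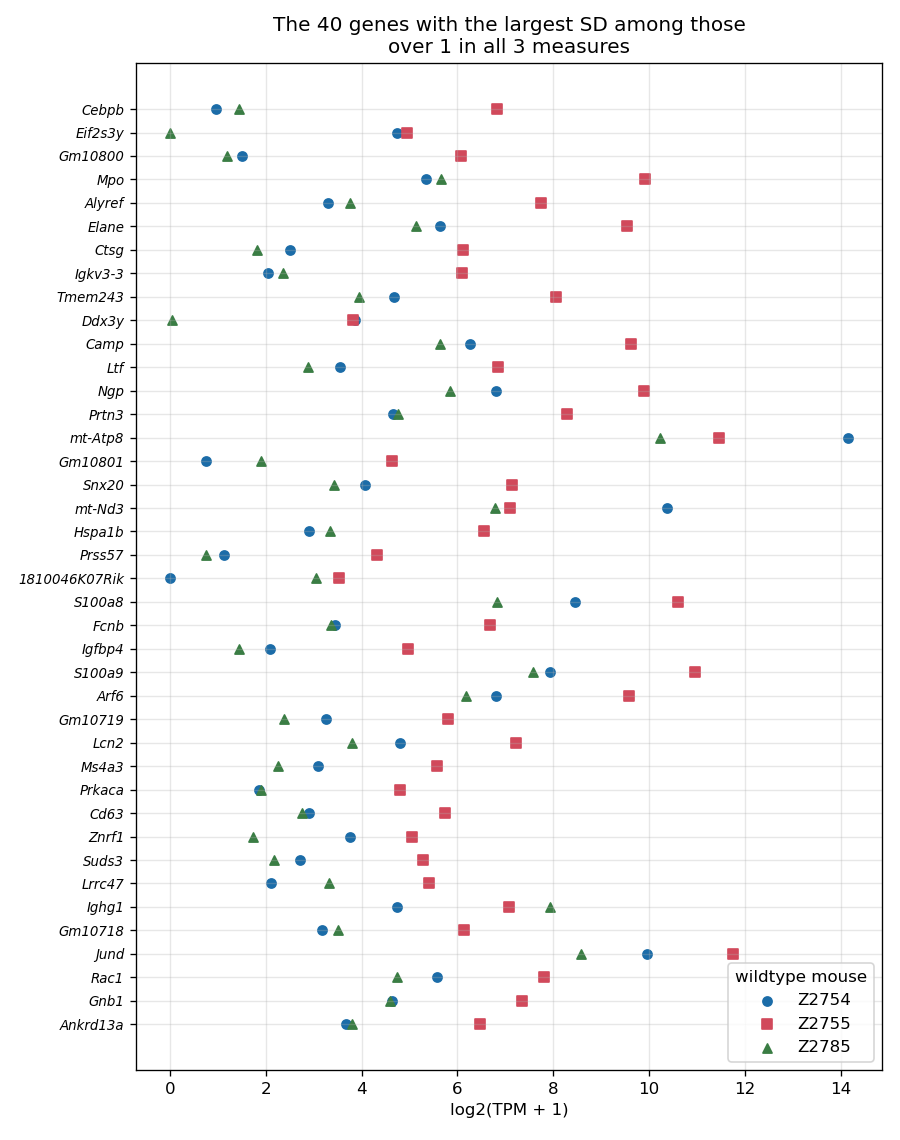
The 40 genes with the largest SD among the 92 over 1 in all 3 measures, with log2(TPM + 1) on the horizontal axis and 1 symbol per wildtype mouse. For most genes the square of Z2755 stands alone at the right, while Eif2s3y and Ddx3y have Z2785 at or near 0 and mt-Atp8 has Z2754 at the right.

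Base composition moved with the library as well. GC content was taken from the longest protein-coding transcript of 7605 genes. Across genes, which share libraries and are not independent, the log2 deviation of a mouse from the mean of the other mice had a Pearson's r with GC content of -0.42 in Z2754, 0.11 in Z2755 and 0.31 in Z2785, and on the standard reference of -0.27, -0.01 and 0.26. The 64 genes high in Z2755 had a median GC content of 54.0% against 50.4% for all genes over the filter, and 15.6% of them against 3.97% lay above 60% GC. The 7 neutrophil genes had a median of 51.0%. The part of GC content, of lane and of granulocyte precursors in the pattern of Z2755 was not tested.

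Z2785 was set apart by genes of the Y chromosome. Eif2s3y, a translation initiation factor subunit, had 25.6, 30.1 and 0 TPM from 693, 584 and 0 reads, and the RNA helicase Ddx3y 13.6, 13.2 and 0.0336 TPM from 536, 427 and 1 reads. Kdm5d and Uty, also on the Y chromosome, had 327, 288 and 0 (Kdm5d) and 171, 87 and 0 (Uty) reads. Xist, the RNA of the inactive X chromosome, was read from the standard reference alone and had 4, 0 and 1545 reads. The Y-linked genes and Xist were thus on opposite sides in Z2785 and the others. This is the pattern of a female for Z2785 and of males for the others, although the labels give no sex. Sex and mouse cannot be told apart in what sets Z2785 apart. The X-linked partners Eif2s3x and Ddx3x had 11.8, 7.09 and 13.4 (Eif2s3x) and 32.02, 25.1 and 21.7 (Ddx3x) TPM, with no such gap.

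Z2754 was set apart by mitochondrial genes. The short gene mt-Atp8 had 18265, 2801 and 1192 TPM, mt-Atp6, which overlaps it, 9398, 2678 and 1779 TPM and mt-Nd3, a subunit of complex I, 1334, 137 and 109 TPM, against the smaller differences of mt-Co1 and mt-Co3 above. On the standard reference mt-Atp8 had 16507, 2926 and 1165 TPM. Hemoglobin genes went the other way. Hba-a1 and Hba-a2, which encode alpha globin, had 24.9, 127 and 123 (Hba-a1) and 13.5, 51.04 and 89.4 (Hba-a2) TPM, lowest in Z2754. Alas2, the heme synthesis enzyme of red cell precursors, had 0.0721, 0.375 and 0.361 TPM.

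Immunoglobulin genes had a median SD of 0.446, against 0.296 for genes outside the named classes. The 5 with the largest SD were Igkv3-3 (3.11, 67.8 and 4.16 TPM), Ighg1, the constant region of IgG1 (25.9, 134 and 242 TPM), Ighv1-36 (28.4, 15.2 and 127 TPM), Ighv5-17 (209.8, 489 and 1502 TPM) and Igkv3-4 (531, 913 and 3379 TPM). The last 3 were highest in Z2785, Igkv3-3 was high in Z2755, and Ighg1 was lowest in Z2754. Related variable segments can exchange reads, so the level of 1 segment is uncertain. Ccl5, a chemokine of T and NK cells named here after its values were seen, was high in Z2785 with 33.2, 41.2 and 139.6 TPM.

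For 120 of the 284 genes neither CPM nor the standard reference showed an SD above 1. Nr3c2, the mineralocorticoid receptor, had 3.74, 8.88 and 96.8 TPM from nearly equal numbers of reads, 83, 71 and 70, and 1.93, 4.499 and 3.604 TPM on the standard reference. Pms1, a mismatch repair gene, had 2.51, 62.3 and 6.68 TPM against 4.89, 5.48 and 3.28 TPM, Ap1g1, an adaptor of vesicle coats, 104, 5.15 and 14.1 against 12.9, 10.3 and 7.35 TPM, and Slc16a7 31.5, 0.918 and 1.04 against 3.92, 3.52 and 1.503 TPM. Slc26a6, an anion exchanger, had 0.582, 31.8 and 12.4 against 4.03, 8.94 and 12.05 TPM, and Nedd1, a centrosome gene, 47.4, 16.4 and 2.15 against 9.09, 8.52 and 7.61 TPM. These 6 genes differed widely between mice on the custom reference and by an SD under 1 on both other measures. Sap18, a corepressor subunit with the largest SD of all, and Dexi also exceeded the limit in CPM, with 127, 18 and 0 (Sap18) and 6, 125 and 4 (Dexi) reads, but not on the standard reference, where they had 32.3, 30.2 and 22.4 (Sap18) and 21.9, 50.5 and 21.1 (Dexi) TPM. Of the 25 most variable genes outside the immunoglobulin class, 16 exceeded the limit in all 3 measures.

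At the other end, the 10 genes with the smallest SD among those of at least 50 TPM were Nop53, Ufc1, Eef1g, Tmed10, Mrpl2, 1810037I17Rik, Pml, Nedd8, Dnajc19 and Arpp19. Eef1g, a subunit of elongation factor 1, had 544, 549.6 and 548 TPM, and Nop53, a ribosome assembly factor, 354, 356 and 353 TPM. Nedd8, a ubiquitin-like modifier, had 473, 473 and 483 TPM, but 308, 383 and 362 TPM on the standard reference, and Tmed10 246, 248 and 246 against 125, 159 and 130.0 TPM. For Nedd8 and Tmed10 the standard reference gave wider gaps. By level, the median SD ran from 0.325 at 5 to 10 TPM to 0.241 at 300 to 1000 TPM and was 0.288 above 1000 TPM, and 2.65 to 4.79% of the genes of a level class exceeded 1.

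To place the wildtype libraries in the series, 7 single values were compared with those of the 6 transgenic libraries by two-sided exact permutation tests, whose smallest possible p is 0.0119, with Benjamini-Hochberg adjustment over the 7. None passed 0.05 after adjustment. The lists were chosen with earlier results of these data known, so a p-value of a list is no independent support for its difference. The quiescence list had 3079 ± 727 TPM (SD, n = 3) in wildtype and 1640 ± 411 TPM (n = 6) in transgenic mice, higher in every wildtype mouse (exact permutation p = 0.0119, adjusted 0.0833). The B lineage list had 9557 ± 815 against 8035 ± 702 TPM (exact permutation p = 0.0357, adjusted 0.0833). The follicular and marginal zone lists together had 4041 ± 522 against 2703 ± 689 TPM (exact permutation p = 0.0476, adjusted 0.0833), a direction known from earlier results of these data. Within this sum the medians of the lists lay in opposite directions. The follicular list lay at 2427 to 3330.1 TPM in wildtype and 723 to 1309 TPM in transgenic mice, without overlap. Lack of overlap was not particular to it, and MHC class II had 45349 to 48401 against 30008 to 41727 TPM. The marginal zone list lay at 1012 to 1077 TPM in wildtype mice and at 949 to 2605 TPM, with a median of 1605 TPM, in transgenic mice. Neither the follicular nor the marginal zone list was tested alone. Genes at 1 TPM or more numbered 10310 ± 221 against 9966 ± 137 per library (exact permutation p = 0.0238, adjusted 0.0833).

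The other 3 values overlapped broadly. The 50 leading genes of each library held 34.1 ± 3.15 against 38.5 ± 4.94% of TPM (exact permutation p = 0.202, adjusted 0.236), and ribosomal protein genes 241221 ± 49356 against 257926 ± 59678 TPM (exact permutation p = 0.714, adjusted 0.714). Markers of cells other than B cells summed to 5177 ± 4071 TPM in wildtype mice (2618, 9871 and 3041 TPM) and to 2444 ± 1741 TPM in transgenic mice (exact permutation p = 0.155, adjusted 0.217). Without Z2755 this difference was 385 TPM, against 2732 TPM with it. On the standard reference the follicular and marginal zone difference was 1846 TPM and the quiescence difference 884 TPM, smaller than the 1439 TPM above, and each had an exact permutation p of 0.0119 and an adjusted p of 0.0417. The quiescence p was the same on both references, and its adjusted p is lower because more than 1 test reached the smallest p. With immunoglobulin and mitochondrial genes left out, the follicular and marginal zone difference was 805 TPM, against 1338 TPM with them (exact permutation p = 0.214, adjusted 0.3). That setting also takes Ighd (749.6, 649 and 564 TPM), an immunoglobulin gene, out of the follicular list. The 2 differences are therefore not of the same list.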

How the data were processed

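Gene expression was measured by RNA sequencing in splenic B cells of 9 mice, of which the 3 wildtype libraries are described here. Per the submitters' processing notes the tools included Salmon 1.0.0, HISAT2 2.0.6, featureCounts and DESeq2, with build GRCm38.p4. The authors deposited, for each library, TPM and estimated counts per transcript from Salmon on a standard and on a custom reference, the latter with the human transgenes, and a table of gene counts. Custom TPM were summed to genes with GENCODE M21 (442 of 57871 transcripts did not match, holding 0.190 to 0.202% of wildtype reads). Estimated counts were used as deposited, without rounding, for reads and CPM only. The deposited gene counts served 1 alternative, after TMM scaling (edgeR 4.0.16). The authors' comparison tables were not used.

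Genes were filtered at a mean of 5 TPM and 100 reads, and variation was the SD of log2(TPM + 1). Named genes were the 30 highest by mean TPM outside immunoglobulin, mitochondrial and ribosomal protein genes, the 5 highest of each of those classes, the 25 with the largest SD outside immunoglobulin genes, the 10 with the smallest SD at 50 TPM or more, and members of 35 gene lists (the highest, the most variable, and markers at 0). A few genes that the rule names are not reported here. Other genes, the 5 immunoglobulin genes among them, were chosen after their values were seen. The members and lists were chosen with earlier results of these data known. The 7 comparisons with transgenic libraries used exact permutation tests over the 84 divisions of the libraries. The code was tested on simulated data. Scripts ran in Python 3.11.15 (pandas 2.3.3, numpy 2.4.6) and R 4.3.3. Alternatives were the standard reference, other thresholds, filters, pseudocounts and scalings, and leaving out each wildtype mouse.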

Additional observations from a re-analysis of the deposited data

How the results depend on the processing

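With 1 library per mouse and 3 mice, the spread between mice cannot be divided into biological and technical parts. The number of genes with an SD above 1, 284 as reported, was 164 on the standard reference, 170 with a pseudocount of 5, 497 without the filter, 157 at a mean of at least 20 TPM, 135 in TMM-scaled CPM of the gene count table, 1420 at an SD limit of 0.5, and 92 in all 3 measures together, an alternative chosen after seeing the data. Leaving out 1 wildtype mouse in turn gave 204 to 357 such genes, the lowest without Z2755, and a median SD of 0.214 to 0.287. The median SD was 0.251 with a pseudocount of 5. On the standard reference 18 of the 30 leading genes were kept, and the differences from transgenic libraries in the follicular and marginal zone lists (1846 TPM) and the quiescence list (884 TPM) passed after adjustment, each at an adjusted p of 0.0417 by the exact permutation test. These lists were chosen with earlier results of these data known, so the p-values are no independent support. With immunoglobulin and mitochondrial genes left out, which also takes Ighd out of the follicular list, the follicular and marginal zone difference was 805 TPM (adjusted exact permutation p of 0.3). The difference in detected genes passed after adjustment at a threshold of 5 TPM (689 genes, adjusted exact permutation p of 0.0417). The difference in the share of the 50 leading genes was 0.000682 percentage points, of the opposite sign, with immunoglobulin and mitochondrial genes left out. The difference in ribosomal protein genes ranged from -42283 to 6962 TPM when 1 wildtype mouse was left out, and its sign changed without Z2755. The cause of these shifts was not tested. The B lineage and non-B marker differences kept their direction under all 6 alternatives run for each. No paired analysis was possible because the replicate numbers of the libraries were given in accession order and pair no mice.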
